A study of Mus musculus with 36 samples.

Results

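The miRNAs described here are the products of a group of hairpins on mouse chromosome X that is named after miR-465, miR-743 and miR-883. The members were chosen by name: every mature miRNA in the deposited count table named miR-201, miR-463, miR-465, miR-470, miR-471, miR-547, miR-741, miR-742, miR-743, miR-871, miR-878, miR-880, miR-881 or miR-883, with any letter after the number and from either arm. That gave 38 of the 1966 mature names in the table. They were followed through 36 small RNA libraries from wild-type C57BL/6 male mice of the F1 generation, aged 24 weeks. The mice were fed chow until they were 6 weeks old and then a set diet for 18 weeks. Liver and epididymal white adipose tissue (eWAT, the fat pad attached to the epididymis) each gave 18 libraries, of which 6 belonged to LF, 6 to HF and 6 to HFLF. The diet tags of those groups read LFD, HFD and HFLFD, whereas the treatment text names LFD for every sample, so whether a group name stands for the mouse's own diet or for that of its father is not settled by the labels. No label says that replicates are separate mice, and p-values therefore measure the spread between these libraries, which may in part be technical.

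MicroRNAs are short RNAs cut from hairpin precursors. One arm of the hairpin, called 5p or 3p, is loaded into an Argonaute protein and pairs with messenger RNAs through its seed, bases 2 to 8. The hairpins of this group belong to the rodent part of the X-linked miR-506 family, which is known for expression in the testis, in germ cells and Sertoli cells, and for fast sequence change between mammals. Neither liver nor fat is a tissue for which the family is known, and no library was labelled as testis or germ cells. Whether such cells were carried into the dissected fat was not tested.

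In RefSeq, on GRCm38.p6, 19 of the hairpins formed a block of 62.4 kb on the minus strand, chrX:66776757-66839125, with Mir743 at the low-coordinate end and Mir465 at the other. The hairpins Mir201 and Mir547 formed a distal pair at chrX:67988096-67988451, also on the minus strand and 1149 kb away from the block. In the GENCODE annotation, the nearest coding genes on either side of the whole group were Slitrk2 (chrX:66649318-66661393) and Fmr1 (chrX:68678541-68717963). None of the 21 hairpins overlapped another gene annotated there. Genes with names that start with Mir were left out of that check, so a host transcript of such a name would be missed.

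All 38 mature sequences were found in RefSeq. The first set holds the 5p arms of the miR-465 hairpins, which share the seed AUUUAGA. It is shown because miR-465c-5p and miR-465b-5p had the most counts of all members over all libraries, 5134 and 3821. The others of the set were scarcer, with 802 counts of miR-465a-5p and 1 of miR-465d-5p. Capitals mark the seed in every sequence.
miR-465a-5p: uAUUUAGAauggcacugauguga
miR-465b-5p: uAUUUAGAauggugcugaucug
miR-465c-5p: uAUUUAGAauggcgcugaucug
miR-465d-5p: uAUUUAGAaugguacugauguga
Counted from the 5′ end, miR-465b-5p and miR-465c-5p differed by U13C alone, and miR-465a-5p and miR-465d-5p by C13U. Reads with an error at that base could be counted for the wrong member, so the split between such a pair is uncertain.

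The 3p arms of miR-465a, miR-465b and miR-465c are shown because they are 1 sequence under 3 names, with the seed AUCAGGG. The table gave them 3306, 3306 and 3271 counts over all libraries. They are treated below as a single measurement, under the name miR-465a-3p, which leaves 36 distinct measurements among the 38 names.
miR-465a-3p: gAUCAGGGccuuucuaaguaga

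The next sequences are shown because they hold 2 pairs of paralogs whose 3p arms share a seed. The miR-743 pair has the seed AAAGACA and differed by C9U, A12U and G18A, read from miR-743a-3p to miR-743b-3p. The miR-883 pair has the seed AACUGCA and differed by G12U. A further pair, miR-743a-5p and miR-871-5p, shares the seed AUUCAGA.
miR-743a-3p: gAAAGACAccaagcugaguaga
miR-743b-3p: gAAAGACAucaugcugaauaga
miR-883a-3p: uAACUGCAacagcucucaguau
miR-883b-3p: uAACUGCAacaucucucaguau

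The last set holds the other abundant members of the block and both main products of the distal pair. Each has a seed that no other member shares.
miR-470-5p: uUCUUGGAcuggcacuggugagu
miR-741-3p: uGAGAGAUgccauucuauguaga
miR-871-3p: uGACUGGCaccauucuggauaau
miR-881-3p: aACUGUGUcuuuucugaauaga
miR-201-5p: uACUCAGUaaggcauuguucuu
miR-547-3p: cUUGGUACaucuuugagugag

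Libraries held 7866583 to 18832842 counts in liver and 9066683 to 17714156 in eWAT. Between 699 and 849 miRNAs had a count in an eWAT library, and between 540 and 633 in all but a pair of liver libraries. That pair, liver LF replicate 4 and liver HF replicate 6, stood apart with 316 and 368 miRNAs. The tissues carried their defining miRNAs: miR-122-5p of hepatocytes lay between 380398 and 781390 CPM (counts scaled to a common library size) in liver and between 143 and 3059 CPM in eWAT. For miR-143-3p, known from fat cells and smooth muscle cells, the ranges were 8606 to 18466 CPM in liver and 121626 to 246036 CPM in eWAT. In eWAT, LF replicates 1 and 4 stood apart in other markers, given below beside the results they touch. In bulk tissue, fewer cells of a type and less RNA per cell cannot be told apart.

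The members were scarce in both tissues. Of the 38 names, 3 had no count in any library (miR-742-3p, miR-880-5p and miR-881-5p), 9 more had fewer than 20 counts over all 36 libraries, and 12 had more than 1000. A filter on low counts left 13 names (11 distinct) for testing in liver and 19 (17 distinct) in eWAT. The filter keeps a miRNA that is high in 1 group only: of the 19 names tested in eWAT, 7 had 10 counts or more in all 6 LF libraries and 0 had them in all 6 HFLF libraries. None of the members appeared in the authors' tables of log2 values, which list 171 miRNAs for liver and 180 for eWAT.

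The summed level of the cluster varied little among liver libraries and widely among fat libraries. Levels within a tissue are given as CPM scaled by the edgeR TMM factors of that tissue. In liver the sum was 37.3 ± 13.6 CPM in LF (SD, n = 6), 29.0 ± 3.01 in HF and 27.2 ± 6.97 in HFLF, and the highest of the 18 libraries held 3.52 times the lowest. In eWAT LF the sum was 252 ± 385 CPM, against 122 ± 182 for HF and 11.8 ± 7.67 for HFLF (SD, n = 6), and the highest library held 410 times the lowest.

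Single fat libraries carried those means. In eWAT LF the 6 sums were 1027, 162, 151, 136, 27.0 and 9.70 CPM, in descending order, with replicate 4 at the top and replicate 2 at the bottom. In eWAT HF they were 478, 153, 60.8, 24.4, 15.7 and 3.53 CPM, with replicate 6 highest and replicate 4 lowest. In eWAT HFLF they were 23.2, 18.4, 10.2, 10.03, 6.41 and 2.504 CPM. All 3 groups overlapped, and every HFLF library lay below the medians of LF (143.6 CPM) and HF (42.6 CPM). Without LF replicate 4 the LF mean was 97.1 CPM, and without HF replicate 6 the HF mean was 51.4 CPM.

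**Figure D1:**
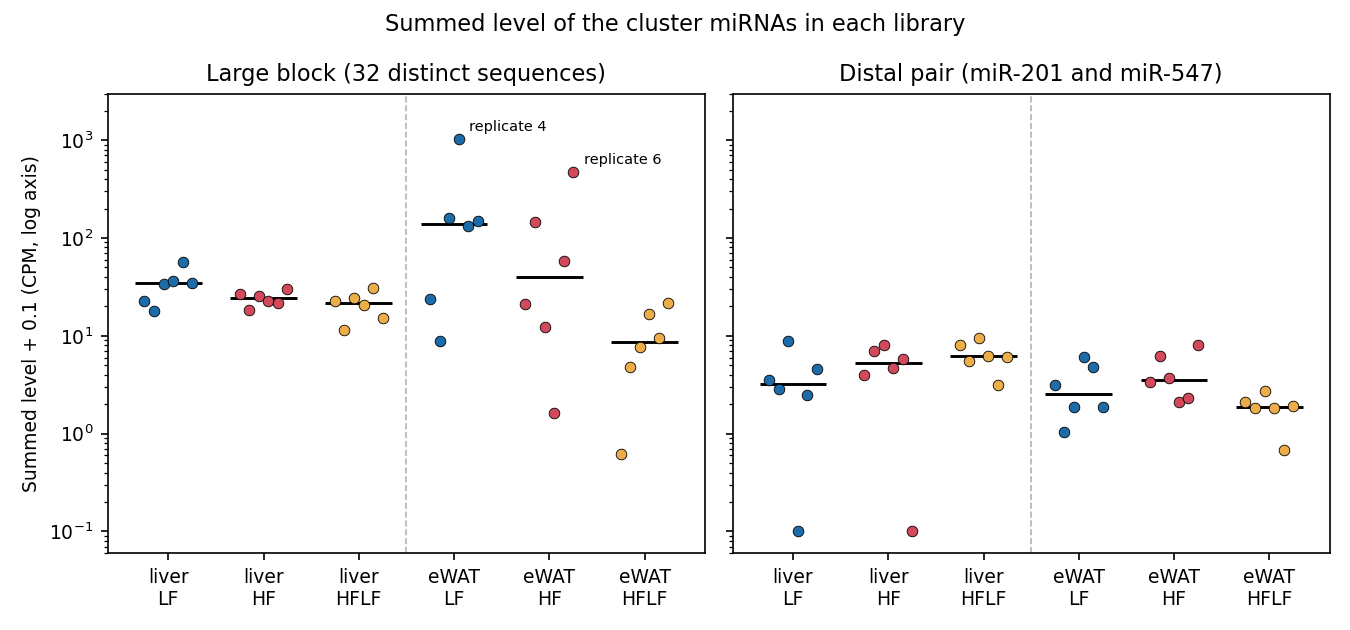
Summed level of the block (left, 32 distinct sequences) and of the distal pair (right) in each of the 36 libraries, in CPM plus 0.1 on a log axis; points are libraries, bars are group medians, and libraries at 0 sit at 0.1. The block spans 0.512 to 1021 CPM in eWAT and 11.4 to 57.0 CPM in liver, while the distal pair stays below 10 CPM in every library.

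The spread in fat belonged to the block and was less wide in the distal pair. Over the 18 fat libraries the block ran from 0.512 CPM in HFLF replicate 1 to 1021 CPM in LF replicate 4, a ratio of 1993. Depth limits the lower end: HFLF replicate 1 held 9 reads of the block in all. The distal pair ran from 0.577 to 7.94 CPM over the same libraries, a ratio of 13.8. As a share of a library, the block took 0.0994% of the counts of LF replicate 4 (95% Wilson interval 0.0974% to 0.101%) and 0.0466% of those of HF replicate 6 (0.0455% to 0.0478%). In HFLF replicate 1 the share was 5.34e-05% (2.81e-05% to 0.000102%). Such intervals cover counting error only, since PCR reads are not independent molecules.

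The high level of the block in LF replicate 4 and HF replicate 6 was spread over most of its sequences. Of the 32 distinct sequences of the block, 25 had a count in LF replicate 4 and 22 in HF replicate 6, against 2 in HFLF replicate 1 and 4 in HF replicate 4. The reads of the block in these libraries were 9559, 6508, 9 and 14 in the same order. So few reads can show only few sequences, and the last pair cannot show how many were present. The most abundant member was miR-465c-5p, with 1773 counts or 18.5% of the block in LF replicate 4 (17.8% to 19.3%) and 906 counts or 13.9% in HF replicate 6 (13.1% to 14.8%). The 2 libraries differed in detail: miR-470-5p, known to act on pluripotency factors such as Nanog, made up 6.31% of the block in the first and 12.0% in the second, and miR-871-3p 4.73% and 10.8%. Across the 15 block sequences that passed the eWAT filter, the order was similar in both libraries (Spearman's rho 0.83, Pearson's r 0.90 on log2 counts). These values are a description, since the points share 2 libraries. The filter keeps a member that is high in 1 group only, and no other pair of libraries was compared in this way. Over the 6 fat libraries richest in the block, miR-465c-5p took 12.0% to 18.5% of its counts, miR-465b-5p 9.44% to 16.2%, miR-465a-3p 8.43% to 12.5%, and miR-743a-3p 6.28% to 9.70%.

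**Figure D2:**
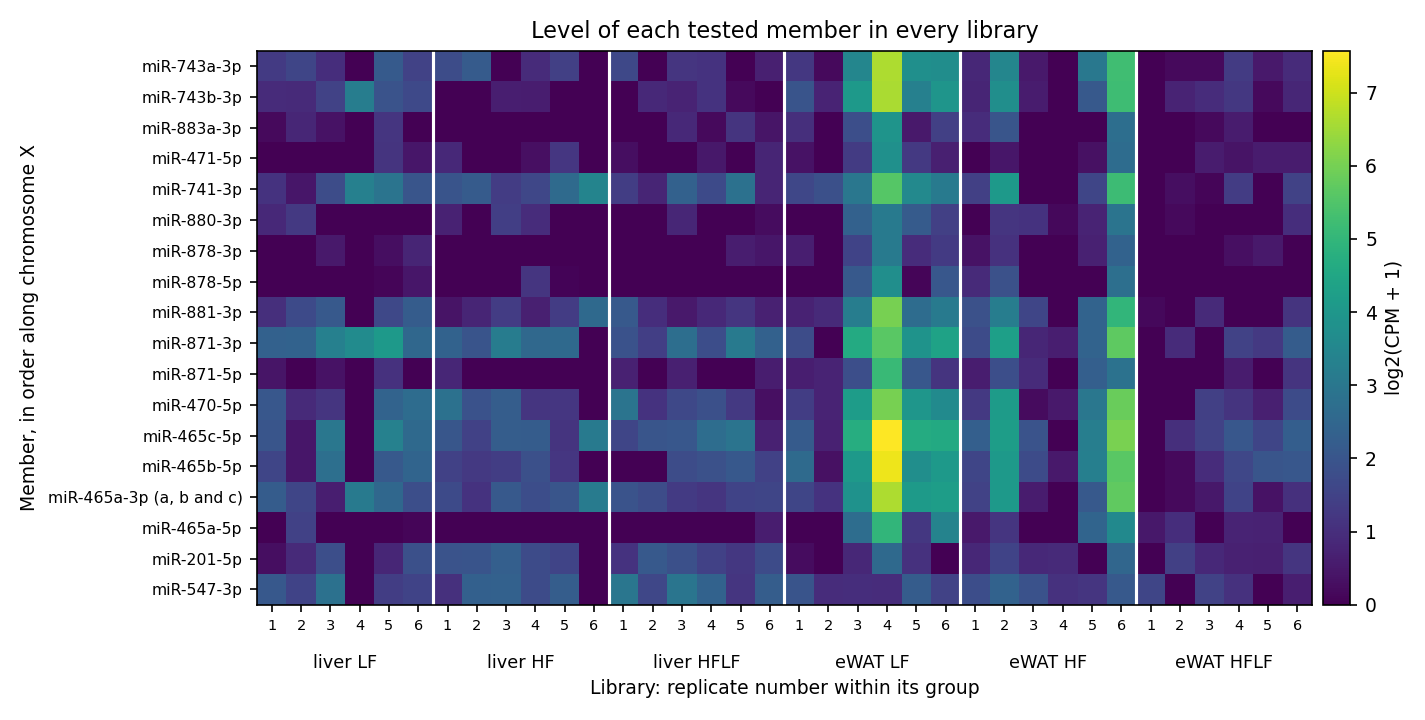
Level of the 18 distinct tested members, in order along chromosome X, in all 36 libraries, as log2(CPM + 1) scaled within each tissue; columns are replicates 1 to 6 of each group. The bright columns are eWAT LF replicate 4 and eWAT HF replicate 6, and miR-547-3p, in the bottom row, lies at 0.961 CPM in the first of them.

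Levels of the 5p arms of miR-465 followed the sum. In eWAT miR-465c-5p lay between 0.611 and 189 CPM in LF (median 23.6), between 0 and 65.4 in HF (median 6.11) and between 0 and 3.80 in HFLF (median 1.93). For miR-465b-5p the ranges were 0.271 to 165 CPM in LF (median 14.1), 0.441 to 48.2 in HF (median 5.48) and 0 to 3.17 in HFLF (median 1.52). Both were highest in LF replicate 4 and HF replicate 6, lowest in LF replicate 2 and HF replicate 4, and both had 0 counts in HFLF replicate 1. The groups overlapped through LF replicate 2, whose level of miR-465c-5p lay below 5 of the 6 HFLF libraries.

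The 3p members behaved alike in the same libraries. The shared 3p sequence, miR-465a-3p, lay between 1.15 and 98.6 CPM in LF (median 14.9), 0 and 51.6 in HF (median 2.58) and 0 and 1.90 in HFLF (median 0.349). In LF miR-743a-3p, reported to act on the mitochondrial malate dehydrogenase message, ran from 0.136 to 99.0 CPM (median 11.1), in HF from 0 to 37.2 (median 4.01) and in HFLF from 0 to 1.47 (median 0.291). Its paralog miR-743b-3p ran from 0.678 to 96.9 CPM in LF, 0 to 36.4 in HF and 0 to 1.35 in HFLF. The medians of these 3 members were ordered LF, HF, HFLF from highest to lowest, with overlap between all groups.

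Of the other abundant members, miR-470-5p ranged from 0.678 to 64.4 CPM in LF (median 12.9), 0.168 to 56.1 in HF (median 4.17) and 0 to 2.32 in HFLF (median 0.900). The values of miR-871-3p were 0 to 48.3 CPM in LF (median 16.6), 0.551 to 50.9 in HF (median 3.32) and 0 to 3.59 in HFLF (median 1.13). Those of miR-881-3p were 0.660 to 64.4 CPM in LF (median 6.47), 0 to 30.7 in HF (median 3.50) and 0 to 1.20 in HFLF (median 0.0569). For miR-741-3p the 6 LF libraries lay between 2.04 and 46.7 CPM (median 7.28) and the 6 HFLF libraries between 0 and 1.83 (median 0.146), so that these 2 groups did not overlap. It was the 1 of the 17 distinct members with every HFLF library below every LF library, and 0.157% of the 638 miRNAs tested in eWAT met that description, which is the same miRNA. The HF libraries ran from 0 to 35.4 CPM and overlapped both.

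For 15 of the 17 distinct members the highest HFLF library lay below the LF median, the exceptions being miR-201-5p and miR-547-3p, the members of the distal pair. The same held for 11.3% of all miRNAs tested in eWAT. Levels of miR-547-3p in eWAT were 0.9498 to 3.60 CPM in LF (median 1.38), 1.103 to 4.26 in HF (median 2.62) and 0 to 1.99 in HFLF (median 0.832). In LF replicate 4 it lay at 0.961 CPM, near the bottom of its group. The other distal member, miR-201-5p, lay between 0 and 5.02 CPM in LF, 0 and 4.62 in HF and 0 and 1.71 in HFLF, and was highest in LF replicate 4 and HF replicate 6.

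No member passed the edgeR quasi-likelihood test with Benjamini-Hochberg adjustment between HFLF and LF in eWAT, where 0% of all 638 miRNAs passed, but the members lay low as a group. All 19 tested names (17 distinct) had a log2 difference below 0, with a median of -4.51 against -0.04 over all miRNAs tested. The filter favours that sign, since it keeps a miRNA that is high in LF alone. Of these names, 7 had 10 counts or more in all 6 LF libraries and 0 in all 6 HFLF libraries. Most were highest together in LF replicate 4, so the names are not independent measurements. Marker lists named for other cell types lay as low in this comparison. The median was -4.08 over 6 tested miRNAs of the male germ cell list outside the cluster and -5.27 over 12 of the epithelial list. These names do not show the cells of origin, and the part of the lists in the members' difference was not tested. Placing miR-878-5p, which had 0 counts in all 6 HFLF libraries and a level at least 95.1-fold lower there than in LF, at that bound left the median at -4.51. LF replicate 4 carried that bound, which was at least 39.7-fold without it. At an unadjusted p under 0.05, 17 of 19 names (15 distinct) were lower, against 11.6% of all miRNAs. DESeq2 called 12 of 19 names lower (10 distinct) at an adjusted p under 0.05, against 4.94% of all miRNAs. Beyond miR-878-5p these were the 3p sequence of miR-465a, b and c, miR-465b-5p, miR-465c-5p, miR-470-5p, both miR-743 3p arms, miR-871-5p, miR-881-3p and miR-883a-3p.

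The edgeR log2 differences between HFLF and LF were similar across the block and smaller in the distal pair. They were -5.41 ± 1.63 for miR-743a-3p (SE, edgeR adjusted p = 0.108) and -5.14 ± 1.505 for miR-743b-3p (adjusted p = 0.0994). The shared 3p sequence of miR-465 differed by -5.26 ± 1.54 (adjusted p = 0.0994), miR-465c-5p by -4.48 ± 1.45 (adjusted p = 0.128) and miR-465b-5p by -4.51 ± 1.45 (adjusted p = 0.128). For miR-881-3p the difference was -5.28 ± 1.54, for miR-741-3p -4.36 ± 1.54, for miR-470-5p -4.22 ± 1.47 and for miR-871-3p -3.80 ± 1.45. In the distal pair miR-547-3p differed by -1.01 ± 0.79 and miR-201-5p by -0.48 ± 1.16. Without LF replicate 4 the median over the 19 names was -3.30, 16 had an unadjusted p under 0.05 and miR-201-5p turned to 0.93. Without liver LF 4, liver HF 6 and both fat libraries rich in epithelial miRNAs, LF replicates 1 and 4, the median was -3.52, with 18 of 19 names below 0, 16 at an unadjusted p under 0.05 and a smallest edgeR adjusted p of 0.682.

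**Figure D3:**
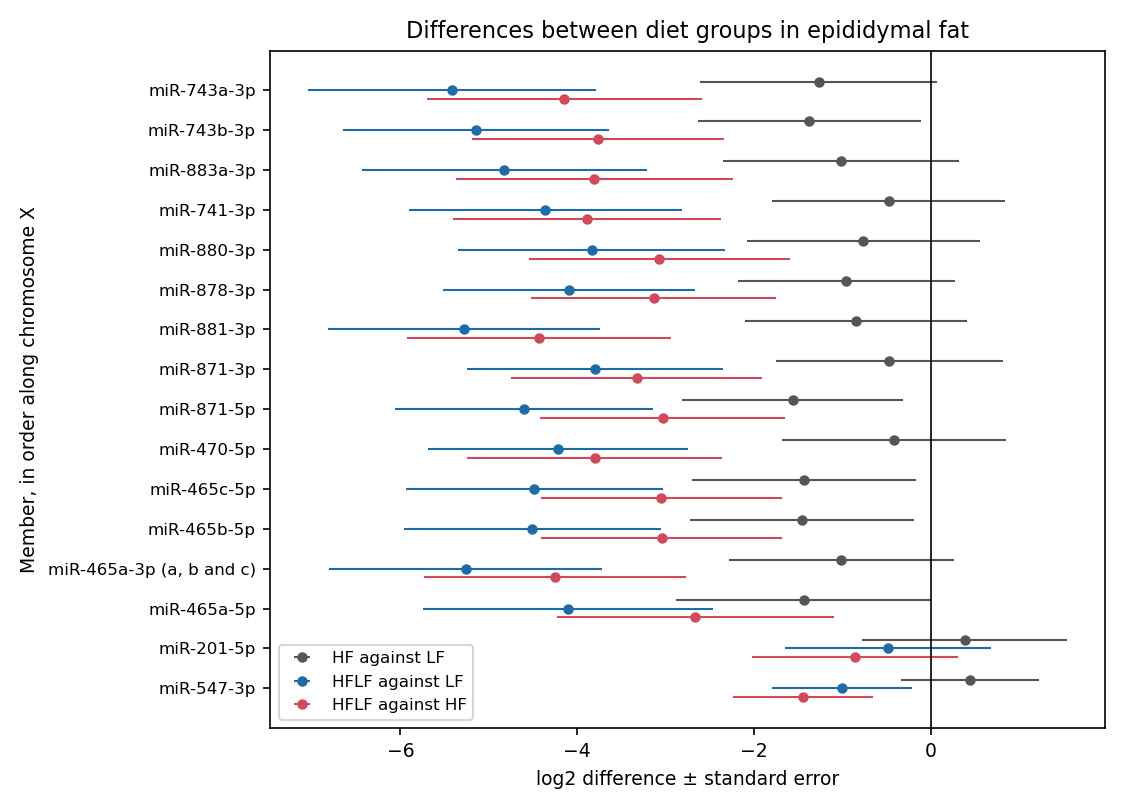
Log2 difference with its standard error for each distinct member tested in eWAT, in order along chromosome X, for the 3 comparisons of diet groups; miR-878-5p is left out because it had 0 counts in every HFLF library. The block members lie between -5.41 and -3.80 for HFLF against LF, and both distal members, at the bottom, lie at -1.01 and above.

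Between HFLF and HF in eWAT the members again lay low and 0 passed, with edgeR (0% of all miRNAs) or with DESeq2 (0%). All 19 names were below 0, with a median of -3.77 against -0.02 over all miRNAs, and 15 had an unadjusted p under 0.05, against 2.98% of all miRNAs that were lower at that threshold. The shared miR-465 3p sequence differed by -4.25 ± 1.48, miR-881-3p by -4.43 ± 1.49 and miR-743a-3p by -4.14 ± 1.55 (SE, edgeR adjusted p = 0.982 for each). The number with a small p rested on 1 library: without HF replicate 6, 2 names had an unadjusted p under 0.05, while all 19 remained below 0 with a median of -2.40. Both comparisons use the same HFLF libraries, so they are not independent of each other, and the limit of the filter holds for both. For miR-878-5p, the level in HFLF was at least 46.5-fold lower than in HF, or at least 21.2-fold without HF replicate 6.

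Between HF and LF in eWAT, 0 of 19 members passed with edgeR, as did 0% of all miRNAs, and 0 had an unadjusted p under 0.05, against 7.68%. DESeq2 called 0 members and 3.34% of all miRNAs. The median was -1.01 against -0.01 over all miRNAs, with 17 of 19 below 0. That direction depended on LF replicate 4, the LF library highest in the block. Without LF replicate 4 the median was 0.24 and 2 of 19 names lay below 0. Without HF replicate 6 it was -2.22 with 18 of 19 below 0, and without both -0.94 with 15 of 17 below 0. The male germ cell and epithelial marker lists had medians of -3.50 and -5.24 in the same comparison. For miR-465c-5p the difference was -1.43 ± 1.27 with all libraries and 0.0511 without LF replicate 4. The member miR-547-3p lay at 0.44 ± 0.78.

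The libraries richest in the block differed in their other markers. The list called male germ cell outside the cluster (miR-34b, miR-34c, the miR-449 family and miR-202) had 9 of 11 names with a count in eWAT, led by miR-34c-5p. Its name is a label given when it was chosen, and these data do not show which cells its miRNAs came from. LF replicate 1 held 4589 CPM of its members in sum, LF replicate 4 held 290 and HF replicate 6 held 242, and the other 15 fat libraries held 29.6 to 113. By group the sum ran from 44.2 to 4589 CPM in LF, 32.03 to 242 in HF and 29.6 to 82.7 in HFLF. LF replicate 1, by far the highest in that list, held 23.9 CPM of the block, more than 10 of the other fat libraries and less than 7. The sum is carried by miR-34c-5p and miR-34b-3p. Another member of the list, miR-202-5p, ran otherwise, with 0 CPM in LF replicates 1 and 4, 17.7 CPM in HF replicate 6, its highest value, and 0 to 10.6 CPM in the other fat libraries.

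The list of epididymal and other epithelial miRNAs (the miR-200 family, the miR-183 cluster, miR-205 and miR-375) had 18 of 20 names with a count in eWAT. LF replicate 4 held 27849 CPM of these in sum and LF replicate 1 held 20778, while the remaining 16 fat libraries held 79.7 to 386, with HF replicate 6 at 226. The pair of libraries highest in this sum thus ranked 1 and 8 of 18 in the block. HF replicate 6, at rank 2, had a sum in the range of the other libraries. That sum is led by miR-200b-3p and miR-200c-3p. Another member of the list, miR-375-3p, lay at 41.4 CPM in HF replicate 6, 48.9 in LF replicate 3 and 37.0 in LF replicate 6. It lay at 3435 and 156 CPM in LF replicates 1 and 4, and at 0.489 to 19.2 in the remaining fat libraries. The list of pluripotent and early germ cell miRNAs (miR-290 to miR-295, miR-302 and miR-367) had 7 of 28 names with a count in eWAT and summed to between 0 and 5.45 CPM. In liver the male germ cell list summed to at most 6.96 CPM. Whether cells of another type in the dissected fat had a part in these levels was not tested.

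**Figure D4:**
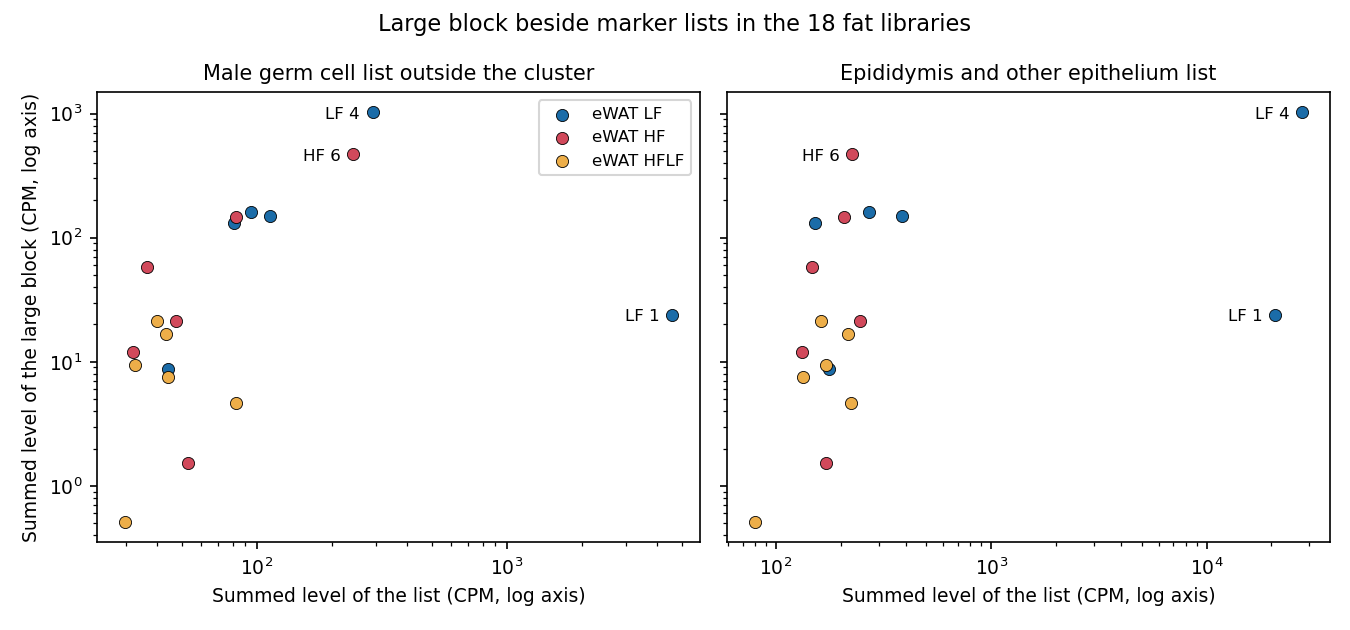
Summed level of the block against the summed level of the male germ cell list (left) and of the epithelial list (right) in the 18 eWAT libraries, in CPM on log axes; points are libraries. LF replicate 1 lies far right in both panels with 23.9 CPM of the block, above every HFLF library, LF replicate 4 is high in both measures on the right, and HF replicate 6 is high in the block alone on the right.

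In liver the cluster was led by another member. The highest was miR-871-3p, at 4.15 to 15.7 CPM in LF (median 6.88), 0 to 8.10 in HF (median 4.57) and 1.63 to 7.63 in HFLF (median 3.43). Next came miR-465c-5p, at 0 to 9.06, 1.19 to 7.66 and 0.626 to 6.52 CPM in LF, HF and HFLF, and miR-741-3p, at 0.375 to 8.76, 1.52 to 9.70 and 0.723 to 6.15 CPM. The distal member miR-547-3p lay at 0 to 6.14, 0 to 4.11 and 1.26 to 6.81 CPM. All groups overlapped in each of these members.

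Liver LF replicate 4 and liver HF replicate 6, the libraries with the fewest miRNAs, each held counts of only 4 of the block's 32 distinct sequences, and the smallest count above 0 was 46 in the first and 71 in the second. Both had 0 counts of the distal pair. Other liver libraries held 8 to 17 block sequences.

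No member passed between diet groups in liver. For HF against LF edgeR called 0 of 13 names (0% of all 478 miRNAs) and DESeq2 0 (0%), and 1 name had an unadjusted p under 0.05, against 3.35% of all miRNAs. That name was miR-743b-3p, which ran from 0.874 to 8.25 CPM in LF and 0 to 0.569 in HF. It differed by -3.83 ± 1.31 (SE, edgeR adjusted p = 0.998). Its counts ran from 7 to 49 in LF and from 0 to 9 in HF. The share of all miRNAs tested in liver whose LF and HF ranges lay apart was not counted. The highest LF value of miR-743b-3p was that of replicate 4, and without that library the difference was -3.14. The median over the members was -0.08 against -0.01 over all miRNAs.

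For HFLF against LF in liver edgeR called 0 of 13 (0% of all miRNAs), DESeq2 0 (0%) and none had an unadjusted p under 0.05 in edgeR, against 2.93%, while DESeq2 gave 1. The median was -0.73 against 0.01, with 11 of 13 below 0. The paralogs miR-743b-3p and miR-743a-3p lay at -2.55 ± 1.23 and -0.93 ± 1.20. For HFLF against HF edgeR and DESeq2 each called 0 of 13 (0% and 0% of all miRNAs), and 0 had an unadjusted p under 0.05, against 1.05%. The median was -0.15 against 0.04 over all miRNAs.

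Fat was then set against liver within each diet group, over all 36 libraries. These comparisons depend on scaling: the TMM factors were 0.575 to 0.807 in liver and 1.37 to 1.68 in eWAT, and plain CPM moved the median over all miRNAs in LF from 0.60 to 1.87 on the log2 scale. In LF edgeR called 0 of 20 tested names, against 47.4% of all miRNAs called in either direction. At an unadjusted p under 0.05, 4 were higher in fat, against 36.3% of all miRNAs. DESeq2 called 4 higher (miR-465b-5p, miR-465c-5p, miR-743a-3p and miR-871-5p), against 40.2% of all miRNAs. The members' median was 1.71, and 0.38 without eWAT LF replicate 4 and HF replicate 6. On this joint scale the cluster summed to 57.3 ± 23.7 CPM in liver LF and 163 ± 245 in eWAT LF (SD, n = 6), with overlap. Under plain CPM 12 of the 20 names passed.

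In HF 4 of 20 names were higher in fat, namely miR-465a-5p, miR-743b-3p, miR-878-3p and miR-883a-3p, against 32% of all miRNAs that were higher. Of these, 3 had 0 counts in all 6 liver HF libraries: miR-465a-5p was at least 38.7-fold, miR-883a-3p at least 21.5-fold and miR-878-3p at least 14.1-fold higher in fat, against a floor of 3 counts over the liver group. These bounds rest on eWAT HF replicate 6, and without it they were 17.1-fold, 10.8-fold and 5.63-fold in the same order. The fourth, miR-743b-3p, differed by 4.21 ± 1.33 (SE, edgeR adjusted p = 0.00797). Without eWAT HF replicate 6 alone miR-743b-3p did not pass (2.70, edgeR adjusted p = 0.0714). Without it and eWAT LF replicate 4, miR-465a-5p and miR-883a-3p passed and miR-743b-3p did not (2.84, adjusted p = 0.0571), and the median over all tested names went from 1.17 to -0.16. Under plain CPM 7 passed.

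In HFLF the direction was the opposite, with 7 of 20 names (5 distinct) lower in fat, against 19.2% of all miRNAs that were lower. Levels in this paragraph are on the joint scale of both tissues, so they differ from the levels scaled within a tissue given above. The distal miR-547-3p differed by -3.35 ± 0.93 (SE, edgeR adjusted p = 0.00304), with 2.07 to 10.2 CPM in liver and 0 to 1.36 in fat. The shared miR-465 3p sequence differed by -2.84 ± 1.03 (adjusted p = 0.0207), with 1.97 to 3.72 CPM in liver and 0 to 1.23 in fat, and miR-741-3p by -3.33 ± 1.15 (adjusted p = 0.0159). For miR-871-3p the difference was -2.94 ± 1.11 (adjusted p = 0.027) and for miR-881-3p -2.90 ± 1.14 (adjusted p = 0.0335). Both of these calls were lost in several alternatives. For miR-871-3p the edgeR adjusted p was 0.0616 with no filter on low counts, 0.0566 without liver HFLF replicate 5 and 0.0521 without eWAT HFLF replicate 1. For miR-881-3p it was 0.0566 with no filter, 0.0843 without liver HFLF replicate 1, and 0.0556 to 0.0678 without eWAT HFLF replicate 1, 2, 4 or 5, each left out alone. The median was -2.40 over the 19 names without miR-878-5p, which had 0 counts in both groups. With plain CPM 1 name passed, miR-547-3p (-2.22, adjusted p = 0.0328), so the count rests on the scaling between tissues.

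The difference of the diet effects between tissues was tested itself. For HFLF, edgeR called 0 of 20 names, against 1.91% of all miRNAs. The member miR-878-5p had 0 counts in HFLF of both tissues, so its value has no meaning. The other 19 names all lay below 0, that is the change from LF to HFLF was lower in fat than in liver. Their median was -3.93 against -0.08 over all miRNAs. At an unadjusted p under 0.05, 11 names (9 distinct) were lower, against 8.22%, and DESeq2 called 3 (1 distinct, the miR-465 3p sequence), against 2.47% of all miRNAs that were lower. For that sequence edgeR gave -4.46 ± 1.402 (SE, adjusted p = 0.109). For miR-881-3p the value was -4.42 ± 1.55, for miR-465c-5p -4.18 ± 1.504 and for miR-547-3p -1.70 ± 1.21. Without eWAT LF replicate 4 and HF replicate 6, 3 names (1 distinct, the miR-465 3p sequence) had an unadjusted p under 0.05 and the median was -2.61. For HF, edgeR called 0 of 20 (2.5% of all miRNAs), DESeq2 called 0 (5.11%), and 1 name had an unadjusted p under 0.05, against 13.1%.

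Which arm of a hairpin was counted differed among members. In eWAT miR-470 gave 99.9% of its counts from the 5p arm (2349 counts against 3 of the 3p arm), miR-201 100% and miR-471, known from Sertoli cells, 86.1%. From the 3p arm came nearly all counts of miR-881 (0 counts of the 5p arm against 1563), miR-880 (0 against 332), miR-883a, miR-741 and miR-547. Both arms of miR-878 were counted, with 58.5% from the 5p arm in eWAT (95% Wilson interval 54.4% to 62.6%) and 47.5% in liver (35.5% to 59.8%). For miR-871 the 5p share was 21.2% in eWAT and 4.28% in liver. Within fat it was 41.5% in LF replicate 4 (38.1% to 45.03%) and 11.0% in HF replicate 6 (8.99% to 13.4%), so the 2 libraries rich in the block differed in the arms of this hairpin beyond counting error. The arms of miR-465a, b and c were not compared, since their 3p arms are 1 sequence.

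**Figure D5:**
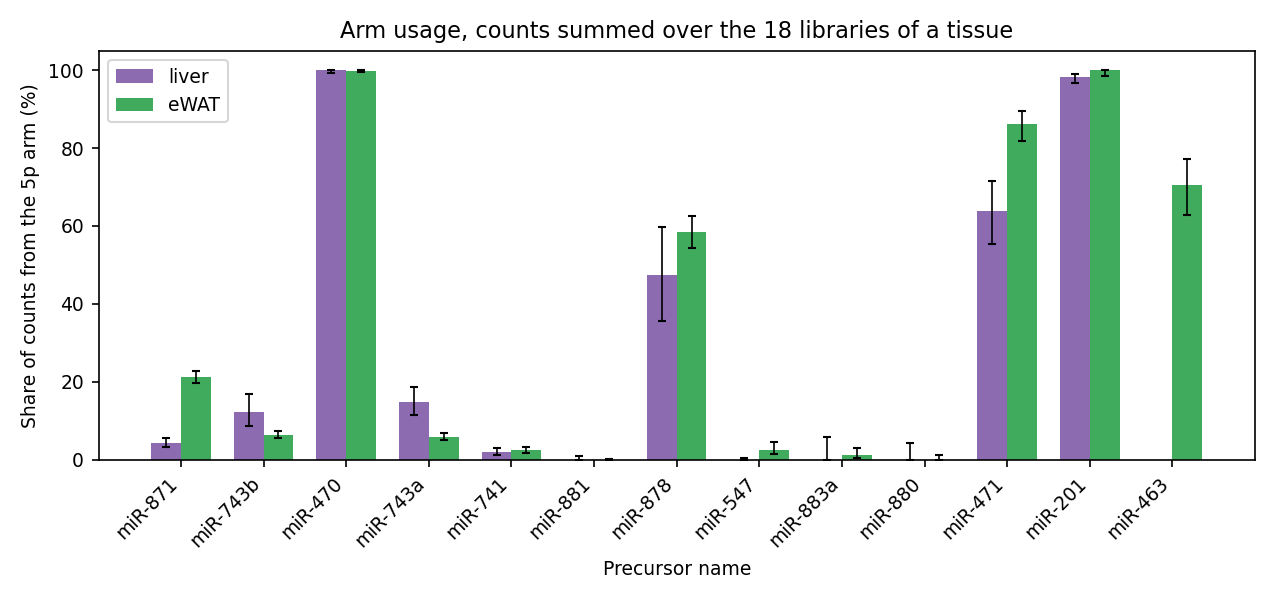
Share of counts from the 5p arm for each hairpin with 100 counts or more in eWAT other than those of miR-465, over the 18 libraries of each tissue; bars are shares and error bars 95% Wilson intervals, and miR-463 has no liver bar because it had fewer than 20 counts there. The hairpins of miR-470 and miR-201 lie near 100%, and those of miR-881, miR-880 and miR-883a near 0%.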

How the data were processed

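Small RNA libraries were made from 1 ug of total RNA with the NEXTFLEX Small RNA-seq Kit v3, per the labels' protocols. The submitters' processing notes name cutadapt, Bowtie and the build GRCm38.p6. Versions, settings and the miRNA release were not given in the sources used here. Raw counts were deposited by the authors in 2118 lines, 1 for each pair of mature name (1966 in all) and precursor. They also deposited CPM columns in that table, and log2 values per tissue, which hold none of the members; neither was tested. Columns were matched to tissues by L and W, and to the groups LF, HF and HFLF by C, H and R from the abbreviations alone.

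For each mature name the line with the highest total was used. Tests on counts used edgeR 4.0.16 under R 4.3.3 (TMM factors, filterByExpr with a minimum count of 10 and a total of 15, robust quasi-likelihood F test). Adjustment was by Benjamini-Hochberg over all miRNAs tested, and the threshold an adjusted p under 0.05. Each tissue was fitted with its 18 libraries for the comparisons of diet groups, and all 36 libraries together for those between tissues. Standard errors are the log2 difference over the square root of F. DESeq2 1.42.0, other scalings, no filter, summed lines, a replicate block and left-out libraries were alternatives. The steps were run on simulated counts with the same dispersion for every miRNA and changes planted only in miRNAs abundant in both tissues. That run does not cover members as scarce and as uneven between libraries as these. Sums count the shared miR-465 3p sequence once. A floor is 3 counts over the summed scaled totals of a group. Each library was counted as a sample of its own. Replicates of a group differed by at least 61.8 chi-square per degree of freedom, which is more than counting error. That value cannot show that they are separate mice, since technical spread would raise it too. The members, the marker lists and the tests were chosen with earlier results of these data known. All members may be named; values are given for the 10 with the highest mean in each tissue and for those called. Sequences and hairpin positions are from RefSeq on GRCm38.p6, and neighbouring and overlapping genes are from GENCODE.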

Additional observations from a re-analysis of the deposited data

Results flagged for a closer look

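In 54 combinations of a measure and a group of 6 libraries, the highest or lowest library was compared with the rest by Dixon's test, and 18 stood apart. The rate of about 1 in 20 by chance holds for normally distributed values. These CPM values cannot fall below 0 and are skewed upward, so 18 of 54 cannot be set against that rate. The measures also share libraries. In eWAT LF, replicate 4 stood above the other 5 in the cluster sum (1027 CPM), miR-465c-5p (189 CPM), miR-465b-5p (165 CPM), miR-743a-3p (99.0 CPM), miR-465a-3p (98.6 CPM), miR-743b-3p (96.9 CPM), miR-470-5p (64.4 CPM) and miR-881-3p (64.4 CPM). In eWAT HF, replicate 6 stood above the other 5 in the cluster sum (478 CPM), miR-465c-5p (65.4 CPM), miR-470-5p (56.1 CPM), miR-465a-3p (51.6 CPM), miR-871-3p (50.9 CPM), miR-465b-5p (48.2 CPM), miR-743a-3p (37.2 CPM), miR-743b-3p (36.4 CPM) and miR-881-3p (30.7 CPM). In liver HF, replicate 6 stood above the other 5 in miR-465a-3p (7.87 CPM). That library held counts of 4 of the 32 distinct block sequences.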

How the results depend on the processing

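The 6 comparisons of diet groups kept 0 members called in edgeR under every alternative run, while DESeq2 called 12 between HFLF and LF in eWAT and 3 in the HFLF difference between tissues. That difference gave 0 to 3 calls when 1 library was left out, with 3 without eWAT HFLF replicate 4. For fat against liver in LF, 0 names became 1 with RLE size factors, 4 with DESeq2, 12 with plain CPM and 2 without liver LF 4, liver HF 6, eWAT LF 1 and eWAT LF 4, and 0 to 1 with 1 library left out. In HF, 4 became 7 with plain CPM and 2 without eWAT LF 4 and HF 6 or with the number as a block within a diet group. In HFLF, 7 became 1 with plain CPM. Plain CPM, the removal of eWAT LF 4 and HF 6, the block within a diet group and the lower bounds without the highest library were chosen after seeing the data. That block took miR-743b-3p in HF to 4.29 (edgeR adjusted p = 0.109) and miR-871-3p in HFLF to -3.58 (adjusted p = 0.0526). The cause of these changes was not tested.

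Of single members, miR-201-5p (HFLF against LF, eWAT, -0.48) reversed to 0.77 without the 4 libraries named and to 0.97 without eWAT LF 4 and HF 6, and ran from -0.91 to 0.93 with 1 library left out. For HF against LF in eWAT, the ranges were -2.83 to 0.0511 for miR-465c-5p, -2.67 to 0.35 for miR-465b-5p and -2.66 to 0.32 for miR-743a-3p, and the last 2 lay at 0.23 and 0.11 without the 4 libraries. In liver miR-465c-5p ran from -0.62 to 0.17 (HF against LF) and -0.52 to 0.16 (HFLF against LF), and miR-871-3p from -0.35 to 0.23 (HFLF against HF). With the replicate number as a block these 3 reversed to 0.10, 0.16 and 0.0595, and the block changed no count of calls, which stayed at 0, 4 and 7 in the comparisons of tissues. Libraries of the same number did not deviate together: in no pair of groups did all 6 pairs correlate above 0.1, nor did every library correlate best with its own number.

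Low counts limit these data. Most members had fewer than 10 counts in some library of every group, and a level of 0 says only that the miRNA was not detected at this depth.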
